A study of Mus musculus with 6 samples.

Results

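The genes followed here serve the endoplasmic reticulum (ER) of AML12 cells, an immortalised mouse hepatocyte line, and comprise its chaperones, its protein disulfide isomerases, the sensors of the unfolded protein response and the genes of ER-associated degradation (ERAD). They were picked by name, as the rows of the deposited tables whose gene symbol equalled a symbol on a list of 40. Of these 40 genes, 39 were found among the 25330 genes of the tables, and 38 had enough counts to be among the 14020 genes tested. The missing gene, Pdia5, was not analysed here. Derl3 was the gene left untested, with 4, 2 and 6 counts in the control libraries and 3, 9 and 8 counts after the treatment. The list was divided by role into 7 sensors, sensor proteases and Xbp1, 12 chaperones and cofactors, 5 disulfide isomerases, 11 ERAD genes, 2 subunits of the translocon and 3 regulators of the response.

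Both groups were wild-type AML12 cells with 3 RNA-seq libraries each. Control cells stayed at 21% O2 and 5% CO2. The H/R cells, labelled H6R2, spent 6 h at 1% O2 and 5% CO2 in a medium without serum and glucose, followed by reoxygenation for 2 h. All cells had been grown in DMEM/F12 with 10% fetal bovine serum, an insulin, transferrin and selenium supplement and 40 ng/mL dexamethasone, so a glucocorticoid was part of the routine medium of both groups. Whether the supplement and dexamethasone were kept in the medium of the H/R cells is not stated. The change of medium, with its loss of serum and glucose, and the change of oxygen came together and cannot be told apart. The labels do not say whether replicates were separate cultures, so p-values measure the spread between these libraries only. The comparison asks which ER genes changed in hepatocytes that had passed through hypoxia and reoxygenation, a cell model of hepatic ischemia-reperfusion.

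Proteins that enter the ER are folded by chaperones and by enzymes that form disulfide bonds, and proteins that fail to fold are passed back to the cytosol for destruction by ERAD. When unfolded proteins gather, the sensors ATF6, IRE1 (gene Ern1) and PERK (gene Eif2ak3) start the unfolded protein response, which lowers translation and raises the transcription of chaperone and ERAD genes. Hepatocytes secrete most plasma proteins and carry a large ER, and loss of energy, of glucose or of ER calcium is known to disturb folding in it.

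Total counts lay between 20438746 and 21854790 per library, and the replicates of a group differed by more than counting noise, so no library appeared to be a copy of another. Control replicate 1 stood apart in 59 genes that had 10 or more counts there and at most 2 elsewhere, against 0 to 2 such genes in each other library, and none of the listed ER genes was among the 59. The hepatocyte markers Serpina1a (61 counts there, 0 or 1 elsewhere) and Ahsg (25 there, 0 elsewhere) were among them, and neither was tested. Among hepatocyte transcription factors, Hnf4a had 2973 to 3209 counts in control and 2035 to 2166 after H/R, but Cebpa had only 17 to 24 and 9 to 12. Alb was weak, with 542, 132 and 209 counts in control and 43, 31 and 37 counts after H/R. Of 9 hepatocyte markers tested, 7 were lower and 2, the keratins Krt8 and Krt18, higher after H/R, and the summed counts per 1000000 (CPM) of all 11 present were 4179 to 4521 in control and 6133 to 6165 after H/R, most of it from these keratins. Of 4 bile duct markers in the tables, the 3 tested were higher (summed level 1321 to 1486 CPM and 2439 to 2533 CPM) and Cftr was at 0 in 5 libraries. The 5 endothelial markers, none with enough counts for a test, summed to 0.141 to 0.595 CPM in control and 0.147 to 0.414 CPM after H/R, with Pecam1 at 0 in 5 libraries. The 7 markers of macrophages and blood summed to 3.14 to 3.76 CPM and 8.61 to 10.4 CPM, with the 2 tested (Cd68 and Csf1r) higher and Adgre1 at 0 in 5 libraries. The 7 stellate and fibroblast markers summed to 0.732 to 1.57 CPM and 0.636 to 1.29 CPM, with the 1 tested (Col1a1) not called and Pdgfrb at 0 in 5 libraries. The part of these shifts in the results below was not tested, and in bulk RNA a smaller share of cells with a transcript cannot be told apart from less of it per cell.

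Several of the ER genes are known by the short DNA elements that ATF6, XBP1 and ATF4 read, and the elements found near these genes are shown first because the results are set against them further on. They were searched on both strands in RefSeq promoter windows of 300 bases (GRCm38.p6, 250 bases before to 50 after the transcript start), which were matched by symbol for 34 of the 40 genes. The ER stress element (ERSE) is CCAAT followed after 9 bases by CCACG. It was found 10 times in 9 of the genes, that of Hspa5 inside the longer gene model of the deposited tables, which begins upstream of the RefSeq start, printed here 5′ to 3′ on the strand that carries it, with both parts in capitals.
Hspa5, chr2:34772020-34772048, plus strand: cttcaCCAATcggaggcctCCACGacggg
Hsp90b1, chr10:86705528-86705556, plus strand: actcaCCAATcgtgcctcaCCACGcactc
Hsp90b1, chr10:86705633-86705661, minus strand: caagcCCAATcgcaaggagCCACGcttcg
Calr, chr8:84847070-84847098, plus strand: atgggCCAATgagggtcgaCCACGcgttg
Canx, chr11:50325795-50325823, minus strand: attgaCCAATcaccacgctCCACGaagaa
Creld2, chr15:88819515-88819543, minus strand: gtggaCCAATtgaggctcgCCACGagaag
Dnajc3, chr14:118937822-118937850, plus strand: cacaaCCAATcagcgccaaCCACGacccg
Pdia6, chr12:17266486-17266514, plus strand: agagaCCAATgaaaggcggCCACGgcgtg
Syvn1, chr19:6046527-6046555, plus strand: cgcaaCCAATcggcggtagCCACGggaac
Derl3, chr10:75893237-75893265, minus strand: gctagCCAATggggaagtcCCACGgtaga

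The related element ERSE-II, ATTGG and CCACG set 1 base apart, was found in Herpud1 and Dnajb11. Herpud1 also held the C/EBP-ATF element TTGCATCA, the type of site read by ATF4 and CHOP. The core of the unfolded protein response element (UPRE), TGACGTG, was found in Hspa5 and Ube2j1. The stretch upstream of Hspa5 with its UPRE core, the stretch of Herpud1 with both of its elements, and the 250 bases upstream of Dnajb9 are given to show how these promoters differ, with the elements in capitals and, for Dnajb9, the CCACG copies in capitals, since neither CCACG there has a CCAAT at the ERSE distance.
Hspa5, chr2:34771840-34771969, plus strand: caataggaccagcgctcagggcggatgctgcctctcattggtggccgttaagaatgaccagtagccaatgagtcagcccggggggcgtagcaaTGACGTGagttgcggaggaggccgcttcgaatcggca
Herpud1, chr8:94386307-94386396, plus strand: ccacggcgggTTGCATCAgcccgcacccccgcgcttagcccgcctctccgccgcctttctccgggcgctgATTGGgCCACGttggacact
Dnajb9, chr12:44210069-44210318, minus strand: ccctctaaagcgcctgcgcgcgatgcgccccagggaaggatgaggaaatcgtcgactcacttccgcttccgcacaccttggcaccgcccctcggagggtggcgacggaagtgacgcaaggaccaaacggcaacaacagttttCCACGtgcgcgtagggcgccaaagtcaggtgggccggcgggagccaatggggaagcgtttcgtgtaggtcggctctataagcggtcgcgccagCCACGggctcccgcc

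The ER stress genes moved mostly upwards after H/R. Of the 38 tested, 24 were higher and 6 lower at an adjusted p under 0.05 (edgeR quasi-likelihood fit, adjusted by Benjamini-Hochberg over the 14020 genes and called edgeR adjusted p from here on). Among all tested genes 31.0% were higher and 31.8% lower by the same rule, so the higher share of the ER genes lay above the background and the lower share below it. The list was chosen with earlier results of these data known, so this contrast is a description only. Their median log2 fold change was 0.20, beside -0.01 over all tested genes. In 23 genes the lowest H/R library exceeded the highest control library, and in 6 the highest H/R library was under the lowest control library, where the backgrounds were 32.5% and 33.5%. A fold change of at least 2 was reached as well by 4 genes, Crebrf, Atf6, Dnajb9 and Hspa5, all higher (background 4.25%). No gene was lower past both thresholds by edgeR or by DESeq2 (background 4.27%), with 7 lower at an unadjusted p under 0.05.

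The direction of the small changes depended on how the libraries were scaled. TMM factors set the libraries by the bulk of the genes, and the tested genes then had a median near 0. When the totals alone were used, that median became -0.12, 19 of the ER genes were higher and 11 lower, and the background became 23.9% higher and 39.1% lower. Across TMM, upper quartile factors, library totals and DESeq2, 19 genes stayed higher and 3 stayed lower (Canx, Mbtps1 and Tmem33). Without control replicate 1, 23 were higher and 3 lower, with the count past both thresholds still at 4. The exons of 11 genes (Hsp90b1, Pdia3, Pdia4, Pdia6, Manf, Syvn1, Derl2, Eif2ak3, Mbtps2, Sec61a1 and Tmem33) overlap exons of another gene in the tables, and since the strand setting of the counting is not given in the sources used here, their values are uncertain. All 4 genes past both thresholds are free of such overlap.

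**Figure D1:**
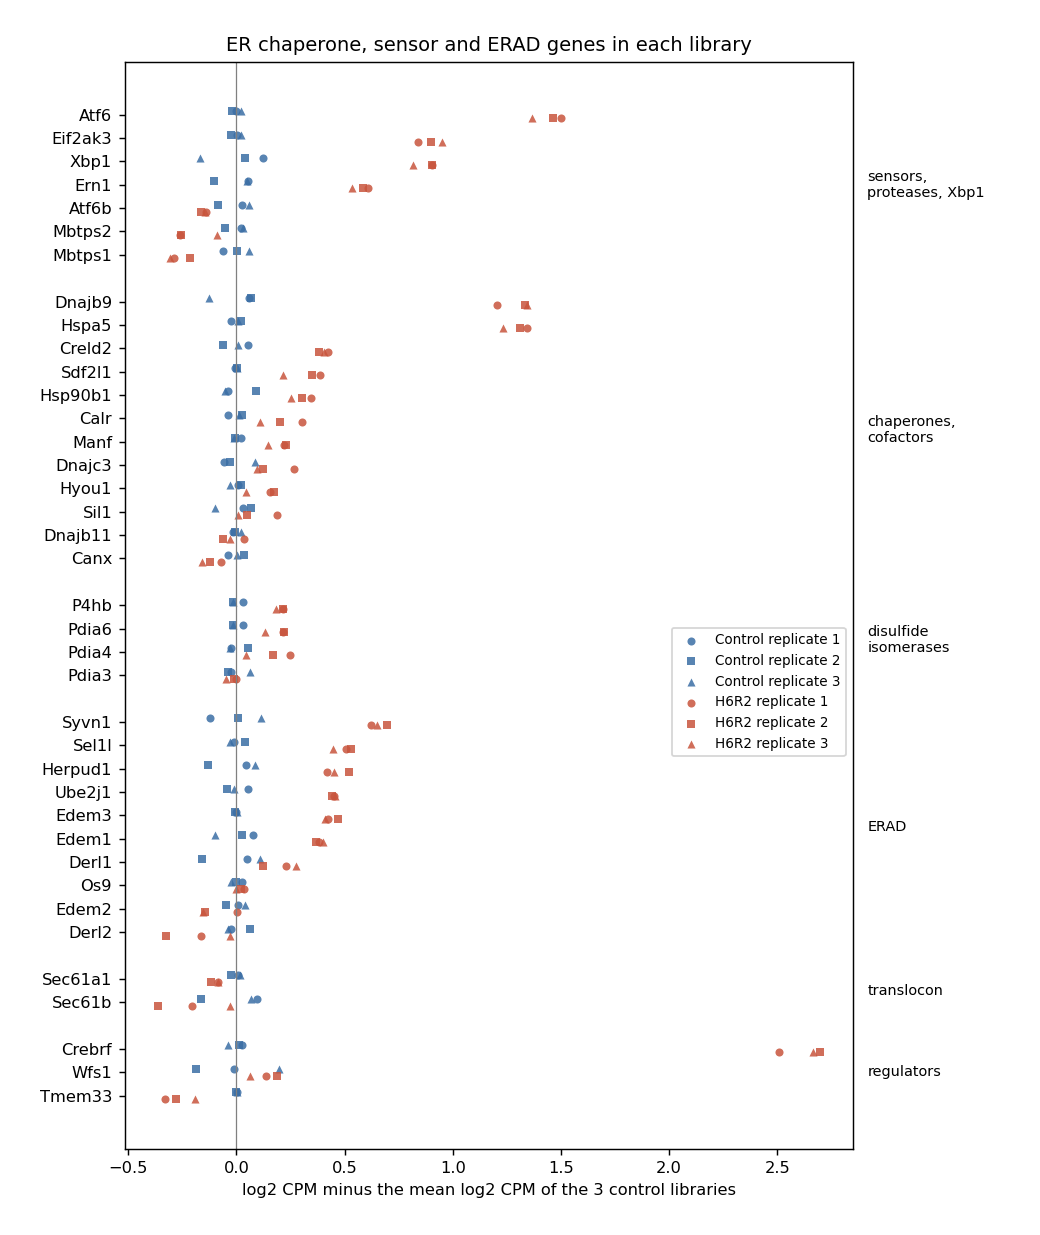
Each row is 1 of the 38 tested ER genes, grouped by role, and each point is 1 library (blue, 3 control; red, 3 H6R2, the H/R cells; marker shape, replicate number). The x axis is the log2 CPM (TMM) minus the mean log2 CPM of the control libraries; the red points of Crebrf, Atf6, Dnajb9 and Hspa5 lie farthest to the right, and those of Mbtps1 and Tmem33 lie left of all blue points.

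The 3 sensors of ER stress rose together, as did Xbp1, the transcription factor that IRE1 switches on. Of the 7 genes of this role, 4 were higher and 3 lower (background 31.0% higher and 31.8% lower). With library totals the split was the same (background 23.9% and 39.1%), and with DESeq2 4 were higher and 1 lower (background 27.5% and 25%). Atf6, an ER-membrane transcription factor that is freed by cutting in the Golgi (chr1:170704674-170867771, minus strand), had TMM-normalised counts of 715, 707 and 728 in the control libraries. After H/R it had 2029, 1979 and 1848. The groups did not overlap, with each H/R library far above the control libraries and the lowest value in H/R replicate 3. The means of 717 ± 10.4 and 1952 ± 93.7 (SD, n = 3) differed by a log2 fold change of 1.45 (SE 0.05, 2.72-fold, edgeR adjusted p = 1.53e-22).

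Eif2ak3 encodes PERK, the kinase that slows translation by phosphorylating eIF2α (chr6:70844515-70905245, plus strand). It had 937, 918 and 949 normalised counts in control and 1672, 1744 and 1808 after H/R, with no overlap and a narrow spread in both groups. The log2 fold change was 0.90 (SE 0.05, 1.86-fold, edgeR adjusted p = 3.5e-17), short of a fold of 2. Of its exon length, 8.05% is shared with Gm43292 on the opposite strand, which had a mean of 104 counts. Ern1, the gene of IRE1α, a kinase and endoribonuclease (chr11:106394650-106487852, minus strand), had 598, 535 and 596 normalised counts in control. After H/R it had 878, 865 and 833. The groups were again apart, by a log2 fold change of 0.57 (SE 0.06, 1.49-fold, edgeR adjusted p = 4.19e-10).

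Xbp1 (chr11:5520659-5525893, plus strand) had 2219, 2094 and 1813 normalised counts in the control libraries and 3813, 3810 and 3590 in the H/R libraries. Control replicate 3 was the lowest and the control spread (SD 208) exceeded that of the H/R group (SD 128), but the groups did not overlap. The log2 fold change was 0.87 (SE 0.06, 1.83-fold, edgeR adjusted p = 6.49e-11). IRE1 is known to cut a short intron out of the Xbp1 mRNA in the cytosol, which shifts the reading frame to that of the active factor. This intron of 26 bases lies inside a coding exon (exon 4 of transcript Xbp1-201, chr11:5524282-5524307, plus strand, GRCm38) and is printed in capitals with 12 bases of exon at each side.
Xbp1 intron cut by IRE1: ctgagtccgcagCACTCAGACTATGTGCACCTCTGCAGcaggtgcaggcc
It makes up 0.8% of the exon length of the gene and is present in all 3 coding transcripts of the annotation. A count per gene holds no information on whether it was cut out, so the rise is one of total Xbp1 RNA, and splicing was not measured.

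The remaining 3 genes of this role were lower, by small amounts. Mbtps1, the site-1 protease that cuts ATF6 in the Golgi (chr8:119508156-119558735, minus strand), had 1692, 1771 and 1842 normalised counts in control and 1446, 1522 and 1430 after H/R. These did not overlap, and the log2 fold change of -0.27 (SE 0.05, edgeR adjusted p = 1.01e-05) kept its call under all 4 scalings. Mbtps2, the site-2 protease, and Atf6b, the ATF6 paralogue, had log2 fold changes of -0.20 and -0.15 (edgeR adjusted p = 0.0395 and 0.0316). With DESeq2 the adjusted p of Mbtps2 was 0.191 and that of Atf6b 0.183. Mbtps2 also lost its call without control replicate 1 (edgeR adjusted p = 0.0867), control replicate 3, H/R replicate 1 or H/R replicate 2 (up to 0.128). Atf6b lost it without control replicate 1 (edgeR adjusted p = 0.0908), control replicate 3 or any 1 of the H/R replicates (0.0577 to 0.13). All of Yy2 lies within Mbtps2 exons, which makes 28.4% of the Mbtps2 exon length shared.

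Per exon length of the gene (RPKM, which is scaled by library totals), Atf6 came close to its paralogue. This length counts all annotated exons of a gene, 9231 bases for Atf6 and 2757 for Atf6b. A level set against that of another gene therefore depends on the annotation. Atf6 had 0.312, 0.333 and 0.310 times the RPKM of Atf6b in the control libraries. After H/R the ratio was 0.994, 0.986 and 0.907. Its own level went from 3.80 ± 0.109 to 9.63 ± 0.375 RPKM (SD, n = 3), while Atf6b was at 11.96 ± 0.724 and 10.0 ± 0.146 RPKM. The ratio of Eif2ak3 to Ern1 was 2.13 to 2.33 in control and 2.58 to 2.94 after H/R. The pairs were chosen after their values had been seen, and no test was made on them.

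**Figure D2:**
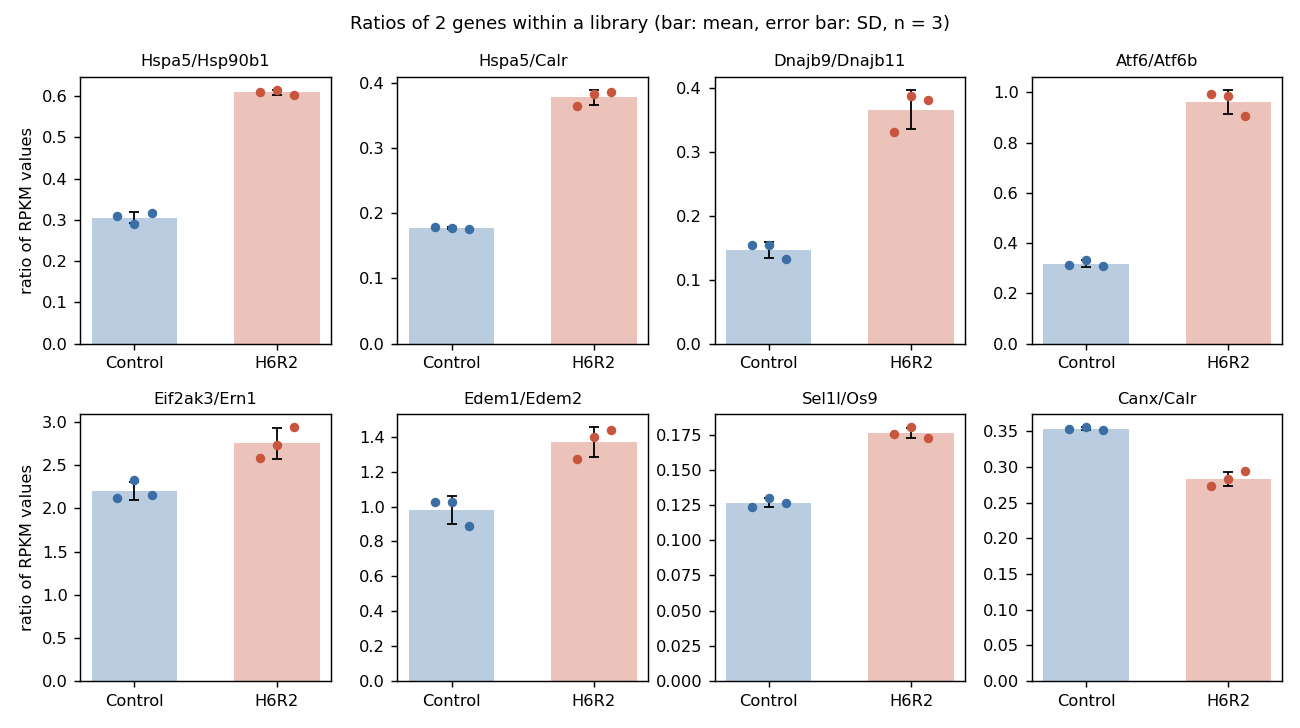
Each panel shows the ratio of the RPKM values of a pair of ER genes within a library (points: 3 control libraries, blue, and 3 H6R2 libraries, red; bar: mean; error bar: SD, n = 3; axes start at 0). The Hspa5/Hsp90b1 ratio went from a mean of 0.306 to 0.609 and Atf6/Atf6b from 0.318 to 0.962, whereas Canx/Calr went from 0.354 to 0.283.

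Among the 12 chaperones and cofactors, 9 were higher, 1 was lower and 2 did not pass, and Hspa5 and Dnajb9 stood out in size. With library totals the split was 7 higher and 2 lower. Over all tested genes the shares were 31.0% higher and 31.8% lower, and 23.9% and 39.1% with library totals. Hspa5 encodes BiP, the main HSP70 chaperone of the ER lumen, which also holds the sensors inactive in unstressed cells (chr2:34771970-34777547, plus strand). It had 14332, 14792 and 14642 normalised counts in the control libraries. After H/R it had 36972, 36178 and 34253. The groups were far apart, with a gap many times the spread within either of them. The log2 fold change was 1.30 (SE 0.05, 2.45-fold, edgeR adjusted p = 1.13e-22).

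Dnajb9 encodes ERdj4, a J protein that drives the ATPase cycle of BiP and is known to bring it to IRE1 (chr12:44205897-44210068, minus strand). Its normalised counts were 232, 233 and 203 in control and 515, 564 and 567 after H/R. The groups did not overlap, although the counts were far lower than those of Hspa5. The log2 fold change of 1.30 (SE 0.08, 2.46-fold, edgeR adjusted p = 9.64e-16) was the largest among the chaperones and close to that of Hspa5, within their standard errors.

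The other J proteins and cofactors of BiP did not share this size of change. Dnajc3 (P58IPK, an inhibitor of PERK as well as a cofactor) had a log2 fold change of 0.16 (edgeR adjusted p = 0.0144), and with library totals the adjusted p was 0.424, without H/R replicate 1 it was 0.142 and without control replicate 1 it was 0.0752. Dnajb11 (ERdj3) had -0.02 (edgeR adjusted p = 0.717), and with library totals it was -0.12 and lower (adjusted p = 0.0133). The RPKM ratio of Dnajb9 to Dnajb11 was 0.155, 0.154 and 0.132 in control and 0.332, 0.388 and 0.382 after H/R. The nucleotide exchange factors of BiP were nearly level, with a log2 fold change of 0.13 for Hyou1 (GRP170, edgeR adjusted p = 0.0123) and of 0.08 for Sil1 (edgeR adjusted p = 0.262). The call of Hyou1 was lost with upper quartile factors (adjusted p = 0.276) and with library totals (adjusted p = 0.686), and without H/R replicate 1 (0.061) or H/R replicate 2 (0.104). Sdf2l1, which keeps the BiP cycle with ERdj3 going, had a log2 fold change of 0.32 (edgeR adjusted p = 0.00249).

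Creld2 and Manf, small ER proteins known to be induced and partly secreted under ER stress, had log2 fold changes of 0.40 and 0.20 (edgeR adjusted p = 8.98e-10 and 7.22e-05), higher under all 4 scalings. Manf shares 9.25% of its exon length with 3 other genes. Hsp90b1, the gene of GRP94, the HSP90 of the ER (chr10:86690209-86705509, minus strand), had a log2 fold change of 0.30 (SE 0.05, edgeR adjusted p = 1.6e-06). The small RNA gene Gm25745 lies wholly inside its exons on the same strand, with 133 bases and 16828 to 20479 counts in the 6 libraries. Reads counted for Gm25745 thus also overlapped exons of Hsp90b1 and may have been counted for both. Subtracting the counts of Gm25745 from those of Hsp90b1, an alternative chosen after seeing the data, gave 0.30 again. Gm25745 itself had 18232, 19286 and 16828 counts in control and 20249, 19845 and 20479 after H/R. It rose in a similar proportion to Hsp90b1, so the subtraction cannot show whether the nested gene affected the value. Hsp90b1 also overlaps 1810014B01Rik and Gm15344, and 15.7% of its exon length is shared in all.

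The lectin chaperones went apart. Calreticulin (Calr), the soluble lectin of the ER lumen and its main calcium store, had a log2 fold change of 0.21 (edgeR adjusted p = 0.000377). Calnexin (Canx), its membrane-bound relative (chr11:50293961-50325673, minus strand), had 31390, 33062 and 32341 normalised counts in control and 30746, 29685 and 28903 after H/R. The groups did not overlap, but the gap between control replicate 1 and H/R replicate 1 was smaller than the spread within either group. The log2 fold change of Canx was -0.12 (SE 0.05, edgeR adjusted p = 0.0264). The call held under the 4 scalings but was lost without control replicate 2 (edgeR adjusted p = 0.064), without H/R replicate 2 (0.0842) and without H/R replicate 3 (0.112). The RPKM ratio of Canx to Calr was 0.354, 0.356 and 0.351 in control and 0.273, 0.283 and 0.294 after H/R.

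Hspa5 therefore took a larger share of the chaperone transcripts. It held 8.91%, 8.72% and 8.95% of the normalised counts of the 12 chaperones in control. After H/R it held 17.3%, 17.6% and 17.5%. The summed level of the other 11 was 6925, 7316 and 7041 CPM in control and 8350, 7987 and 7635 CPM after H/R. The sum of the others was thus slightly higher after H/R, without overlap between groups, while the share of Hspa5 differed by far more than its spread. With library totals the sums of the others overlapped, at 7080, 7548 and 7423 CPM in control and 7991, 7666 and 7435 CPM after H/R. Per exon length, Hspa5 went from 169 ± 4.59 to 385 ± 11.6 RPKM. This took it from below Pdia3, Pdia4, Canx and P4hb to above Pdia3, Pdia4 and Canx. Such an order of genes depends on the annotated exon lengths. Calr was the most abundant ER gene of the list in both groups (952 ± 33.9 and 1021 ± 60.4 RPKM), followed by Hsp90b1 (554 ± 29.3 and 632.7 ± 14.99 RPKM).

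**Figure D3:**
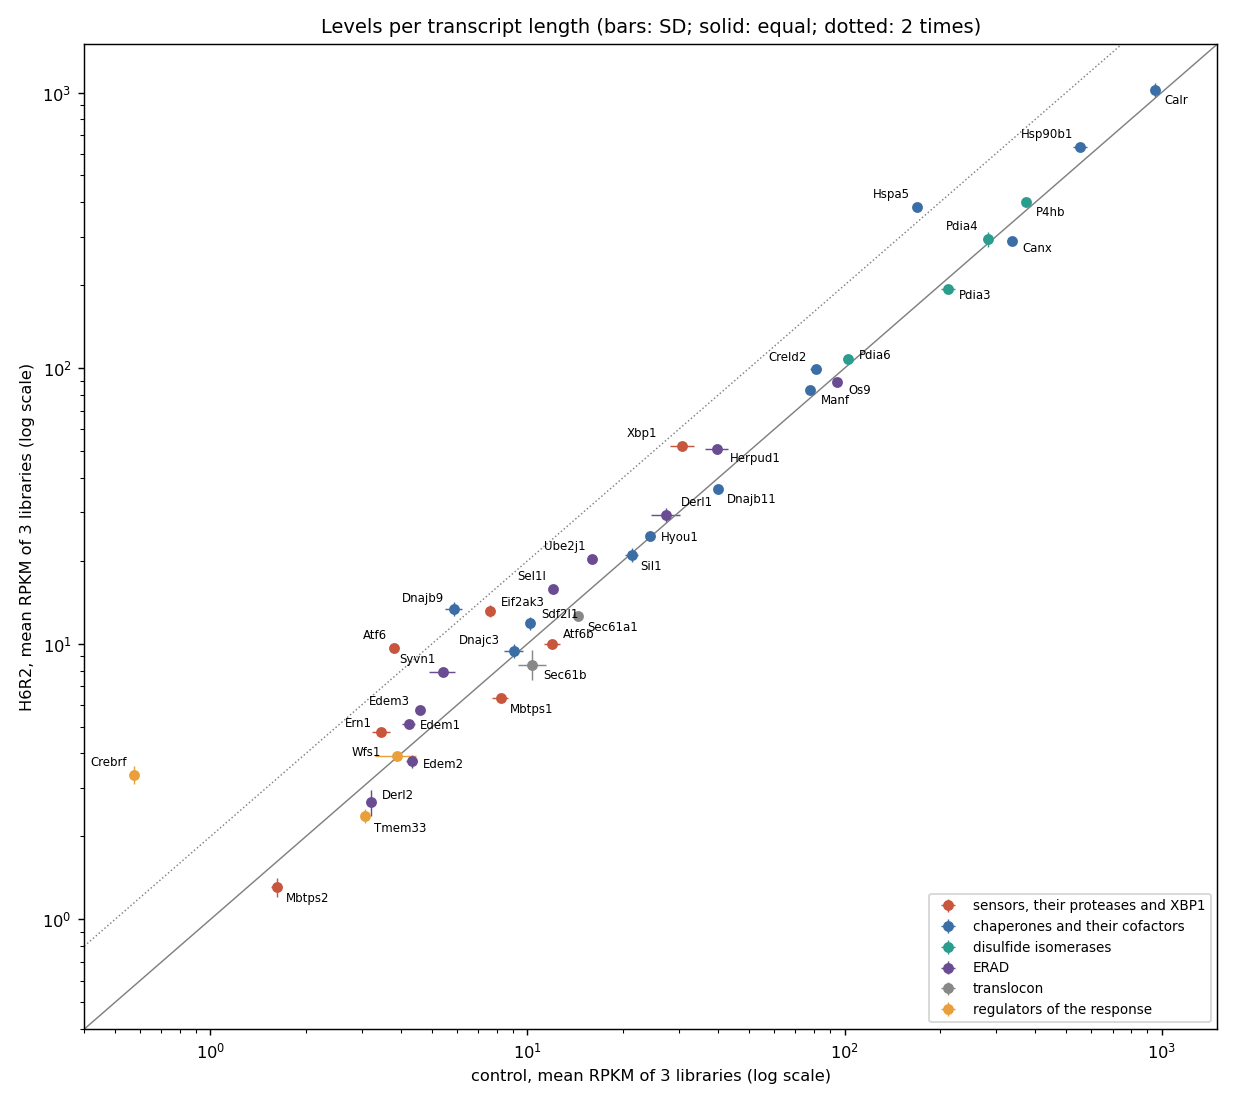
Mean RPKM of the 3 control libraries (x axis, log scale) against that of the 3 H6R2 libraries (y axis, log scale) for the 38 tested ER genes, coloured by role, with bars for the SD, a solid line at equal levels and a dotted line at a fold of 2. Hspa5, Dnajb9, Atf6 and Crebrf lie above the dotted line, and Calr has the highest RPKM in both groups. The length in RPKM is the exon length of the gene, called transcript length in the title.

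The disulfide isomerases changed little. These enzymes make, break and rearrange disulfide bonds, and 3 of the 4 tested were higher, with none lower (background 31.0% higher and 31.8% lower). P4hb, protein disulfide isomerase itself (chr11:120560298-120573253, minus strand), had 22370, 21677 and 21657 normalised counts in control and 25447, 25462 and 24860 after H/R. No library overlapped, and P4hb had the largest log2 fold change of the role at 0.21 (SE 0.04, 15.3% higher, edgeR adjusted p = 0.000136). It was the only isomerase that stayed higher under all 4 scalings. Pdia6, which also tempers IRE1, had a log2 fold change of 0.19 (edgeR adjusted p = 0.000257), and Pdia4 (ERp72) had 0.15 (edgeR adjusted p = 0.00619). The groups of Pdia4 overlapped, with 14296 normalised counts in H/R replicate 3 and 14412 in control replicate 2. With library totals the adjusted p of Pdia6 and Pdia4 was 0.0655 and 0.343. That of Pdia4 was also 0.136 with upper quartile factors and 0.106 without H/R replicate 1. Pdia3 (ERp57), which works with calnexin and calreticulin on glycoproteins (chr2:121413775-121438687, plus strand), had 13349, 13245 and 14210 normalised counts in control. After H/R it had 13588, 13488 and 13154. Its groups overlapped and its log2 fold change was -0.02 (SE 0.04, edgeR adjusted p = 0.707), whereas with library totals it was -0.13 and lower (adjusted p = 0.0102).

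The ERAD genes were mostly higher. Of 10 tested genes, 7 were higher, 1 lower and 2 did not pass, with a median log2 fold change of 0.41 (background 31.0% higher and 31.8% lower). With library totals 6 were higher and 2 lower (background 23.9% higher and 39.1% lower). Syvn1 encodes HRD1, the ligase at the centre of the complex (chr19:6046576-6053712, plus strand). It had 482, 528 and 567 normalised counts in control and 809, 851 and 823 after H/R. All H/R libraries lay above all control libraries, and the log2 fold change was 0.66 (SE 0.06, 1.57-fold, edgeR adjusted p = 5.53e-11). Os9, described below, was not called higher, but some other genes of proteins that work with HRD1 rose, by less. Sel1l, its adaptor, had a log2 fold change of 0.50 (edgeR adjusted p = 6.55e-12), Herpud1, which recruits substrates to it, 0.46 (edgeR adjusted p = 1.37e-09), and Ube2j1, the conjugating enzyme of the membrane, 0.45 (edgeR adjusted p = 7.51e-10).

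The mannosidase-like proteins that mark misfolded glycoproteins differed among themselves. Edem3 and Edem1 had log2 fold changes of 0.44 and 0.38 (edgeR adjusted p = 6.26e-08 and 2.24e-06). Edem2, which makes the first trim, had -0.10 (edgeR adjusted p = 0.327), with 307, 296 and 314 normalised counts in control and 306, 276 and 274 after H/R. The RPKM ratio of Edem1 to Edem2 was 1.03, 1.03 and 0.886 in control and 1.27, 1.40 and 1.44 after H/R. Os9, a lectin that hands trimmed glycoproteins to SEL1L, had a log2 fold change of 0.02 (edgeR adjusted p = 0.708) that was negative with library totals and with upper quartile factors. The RPKM ratio of Sel1l to Os9 was 0.124 to 0.130 in control and 0.173 to 0.181 after H/R, without overlap.

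The derlins, membrane proteins of the exit channel, did not move as a group. Derl1 had a log2 fold change of 0.21 (edgeR adjusted p = 0.00409), which with library totals had an adjusted p of 0.187. Derl2 (chr11:71007164-71019841, minus strand) had 520, 553 and 515 normalised counts in control and 472, 422 and 519 after H/R. H/R replicate 3 lay inside the control range, so the groups overlapped. The log2 fold change of Derl2 was -0.17 (SE 0.07, edgeR adjusted p = 0.0476), and the call was lost with DESeq2 (adjusted p = 0.209) and when any library but H/R replicate 3 was left out (edgeR adjusted p from 0.0506 without control replicate 3 to 0.311 without H/R replicate 2).

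The translocon subunits, through which new chains enter the ER, were not called in either direction by edgeR with TMM factors. Sec61a1, the channel itself (chr6:88503579-88518905, minus strand), had 2003, 1955 and 2014 normalised counts in control and 1874, 1836 and 1875 after H/R. The groups were separate but close, with a log2 fold change of -0.10 (SE 0.04, edgeR adjusted p = 0.0592, unadjusted p = 0.0379). Sec61b, a small subunit (chr4:47474658-47483242, plus strand), had 287, 239 and 282 normalised counts in control and 233, 208 and 263 after H/R, which overlapped. Its log2 fold change was -0.20 (SE 0.10, edgeR adjusted p = 0.0849, unadjusted p = 0.0563). Leaving out control replicate 2 made both lower (edgeR adjusted p = 0.049 for Sec61a1 and 0.0212 for Sec61b), as did H/R replicate 3 for Sec61b (0.027). Both were lower with upper quartile factors (adjusted p = 0.00149 for Sec61a1 and 0.019 for Sec61b) and with library totals, but neither with DESeq2.

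Of the regulators, Crebrf changed most among all genes of the list. Crebrf encodes a factor that binds CREB3 and promotes its breakdown (chr17:26715650-26776635, plus strand). It had 102, 101 and 97.9 normalised counts in the control libraries. After H/R it had 581, 662 and 649. The control values lay within 5 counts of each other and the lowest H/R library was more than 5 times as high, a log2 fold change of 2.65 (SE 0.09, 6.27-fold, edgeR adjusted p = 4.32e-23). It ranked 57 among the 14020 tested genes by increase, before Atf6 at 268, Dnajb9 at 335 and Hspa5 at 339. Tmem33, an ER membrane protein that has been tied to PERK signalling (chr5:67260565-67291461, plus strand), had 563, 562 and 563 normalised counts in control and 447, 464 and 493 after H/R. It did not overlap and was lower under all 4 scalings, with a log2 fold change of -0.27 (SE 0.07, edgeR adjusted p = 0.000875). Gm42670 on the opposite strand shares 7.79% of its exon length and had a mean of 22.7 counts. Wfs1, wolframin, an ER calcium and stress regulator, had a log2 fold change of 0.12 (SE 0.09, edgeR adjusted p = 0.257) and overlapping groups, and was higher without control replicate 3 (edgeR adjusted p = 0.0456).

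**Figure D4:**
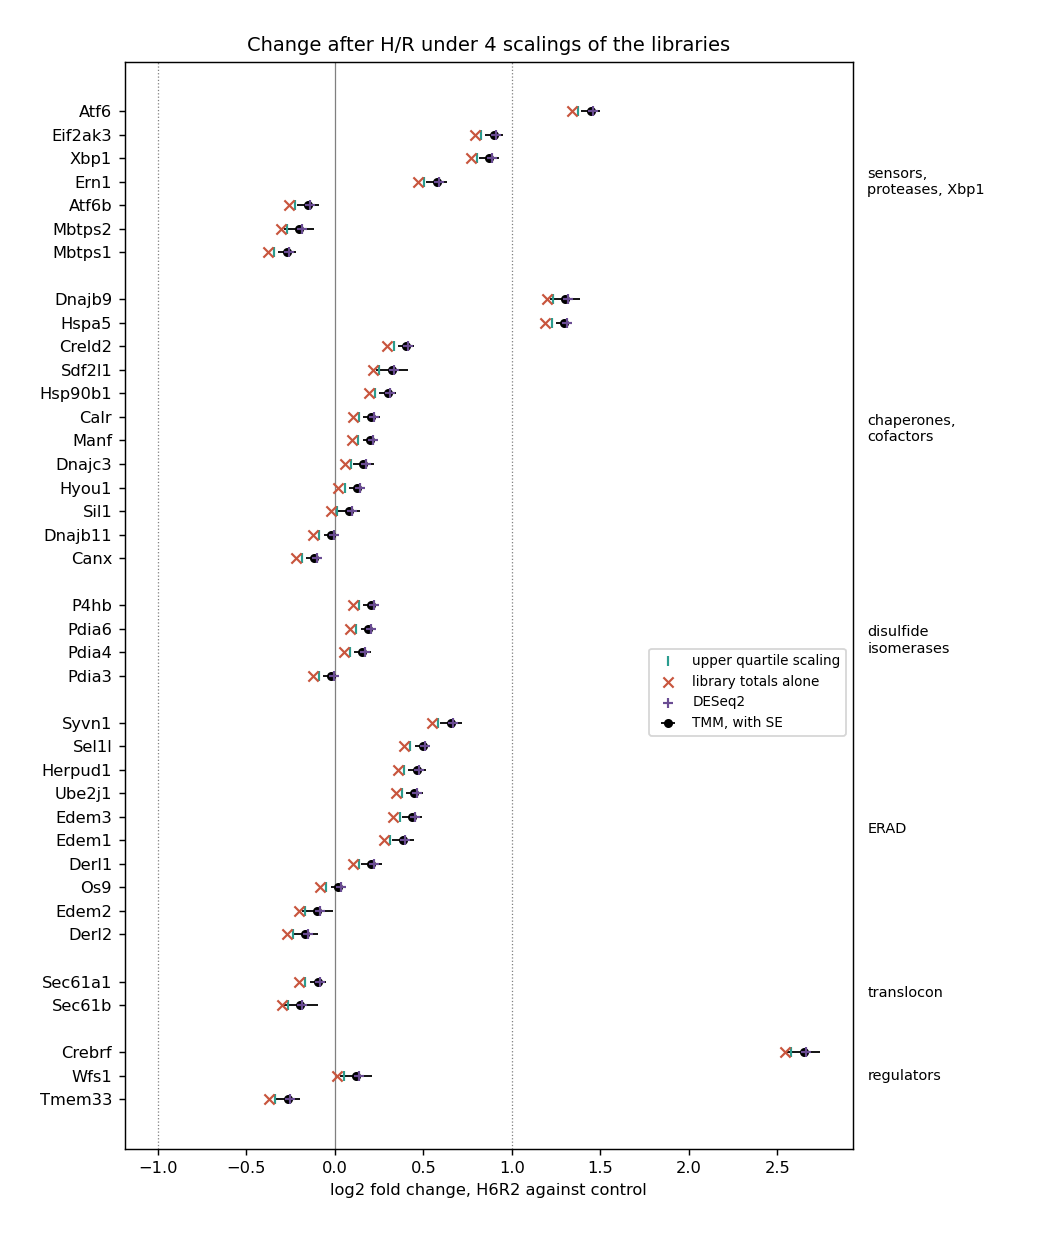
Log2 fold change of H6R2 against control (x axis) for the 38 tested ER genes, grouped by role, from edgeR with TMM factors (black, with SE) and with upper quartile factors, library totals alone and DESeq2 (coloured marks); dotted lines mark a fold of 2. Library totals lie to the left of TMM throughout, and Crebrf, Atf6, Dnajb9 and Hspa5 lie past the right dotted line under every scaling.

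By role, the median log2 fold change was 0.57 for the sensors, proteases and Xbp1, 0.41 for ERAD, 0.20 for the chaperones, 0.17 for the isomerases, 0.12 for the regulators and -0.15 for the translocon. The 7 sensor genes summed to 329 to 340 CPM in control and 493 to 510 CPM after H/R. The ERAD genes summed to 801 to 828 CPM and 950 to 959 CPM, and the isomerases to 2697 to 2710 CPM and 2877 to 3052 CPM. The chaperones summed to 7602 to 8015 CPM and 9254 to 10100 CPM. None of these sums overlapped between groups with TMM factors. With library totals those of the isomerases did, at 2771 to 2850 CPM in control and 2802 to 2921 CPM after H/R, and the other 3 did not. Over the 38 genes, the Spearman correlation of the signed log2 fold change with the level was -0.03, across genes of the same 6 libraries and given as a description.

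Other genes of the pathway, taken from 9 lists with 120 tested genes, were more evenly divided as a whole, with 49 higher and 39 lower, or 36 higher and 48 lower with library totals. The background for this count and for each list below was 31.0% higher and 31.8% lower over all tested genes. With library totals it was 23.9% higher and 39.1% lower. These lists too were chosen with earlier results of these data known, and their counts are descriptions. The genes that act downstream of PERK were mostly higher. Of 9, 8 were higher under all 4 scalings and none lower with TMM factors, the other being Eif2s1, the gene of eIF2α, with a log2 fold change of -0.03. Past both thresholds were Chac1, a glutathione-degrading enzyme (log2 fold change 3.02), Ddit3, the gene of CHOP (1.61), Ppp1r15a, the gene of the GADD34 phosphatase subunit that reverses the PERK mark (1.56), and Trib3, a pseudokinase (1.40), of which Ppp1r15a and Trib3 were named after their values had been seen. Chac1 had 75.8, 53.6 and 77.2 normalised counts in control and 487, 684 and 514 after H/R, without overlap. Ddit3 had 726, 628 and 636 in control and 2086, 2126 and 1863 after H/R, also without overlap, and both Ddit3 and Ppp1r15a share exons with another gene.

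The other membrane-bound transducers of the CREB3 family were higher in 3 of 4, among them Creb3l3, the hepatocyte factor CREB-H, at a low level (3.8, 12.7 and 6.6 normalised counts in control and 25.8, 33.4 and 33.0 after H/R, log2 fold change 1.99, edgeR adjusted p = 8.05e-06). Among other oxidoreductases and prolyl isomerases, 4 of 19 were higher and 9 lower. Ero1l, the oxidase that recharges protein disulfide isomerase, had the largest fitted change of the pathway genes, with that of Chac1 differing by less than its SE of 0.17, from 472, 468 and 507 normalised counts to 4220, 4140 and 4325 (log2 fold change 3.13, SE 0.05, edgeR adjusted p = 1.7e-32). Fkbp11, a prolyl isomerase, was the pathway gene that was lower past both thresholds, from 33.1, 36.1 and 42.4 to 17.2, 20.5 and 15 (log2 fold change -1.08, edgeR adjusted p = 0.000672). Neither gene overlapped between groups.

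The remaining lists held no gene past both thresholds and were mixed. Their counts stand beside a background of 31.0% higher and 31.8% lower, or 23.9% and 39.1% with library totals. In N-glycosylation and the calnexin cycle, 3 of 20 were higher and 9 lower, and with library totals 1 higher and 12 lower. In translocation and signal peptide cleavage, 7 of 21 were higher and 8 lower, or 5 and 9 with library totals. Other ERAD genes were higher in 13 of 24 and lower in 7, or 7 and 8 with library totals. The vesicle coat of ER export was higher in 6 of 10 and lower in 1, or 5 and 2. Other J proteins were higher in 2 of 5 and lower in 1, or 1 and 1. ER calcium genes were higher in 3 of 8 and lower in 4, or 2 and 5.

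Promoter elements were set against these changes as a description, with calls from edgeR with TMM factors only. By these calls, 31.0% of all tested genes were higher and 31.8% lower. The ERSE was present in 9 of the 34 ER genes with a promoter window (26.5%) and in 39 of all 32851 windows (0.119%). The first share is by gene and the second by window. Since ER genes are known by this element, the contrast is no result of these data. The 8 ERSE genes tested had log2 fold changes from -0.12 (Canx) to 1.30 (Hspa5) with a median of 0.25, and 7 were higher. The 24 tested genes of the list without an ERSE had a median of 0.18, and 13 were higher. Outside the list, 8 genes with an ERSE were tested, of which 3 were higher and 2 lower, with a median of 0.07. Genes with the element thus ranged from the rise of Hspa5 to the small fall of Canx, and Crebrf, Dnajb9, Xbp1 and Eif2ak3 changed more than most ERSE genes without an ERSE in their window.

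The ERSE-II was in 0.0365% of all windows, and its carriers differed, with log2 fold changes of 0.46 for Herpud1 and -0.02 for Dnajb11. Of 6 tested genes outside the list with an ERSE-II, 0 were higher and 2 lower. The background for this count and for those below was 31.0% higher and 31.8% lower over all tested genes. The UPRE core was in 2.01% of windows, and its carriers Hspa5 and Ube2j1 both rose. Of 311 tested genes outside the list with this core, 102 were higher and 97 lower. The C/EBP-ATF element of Herpud1 was in 0.895% of windows, and of 69 tested genes outside the list with it, 37 were higher and 9 lower. CCACG on its own, which is also part of the ERSE and the ERSE-II, was in 32.8% of windows and in 26 of the 34 ER genes. Of the 24 tested genes with CCACG, 18 were higher, and of the 8 without it, 2 were higher (Xbp1 and Eif2ak3). Outside the list, 4814 tested genes had CCACG, of which 1584 were higher and 1627 lower, with a median of -0.01. Windows of Atf6, Derl1, Hyou1, Manf, Sec61a1 and Sil1 were not used here. A match is a run of letters and not a site shown to be bound.

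**Figure D5:**
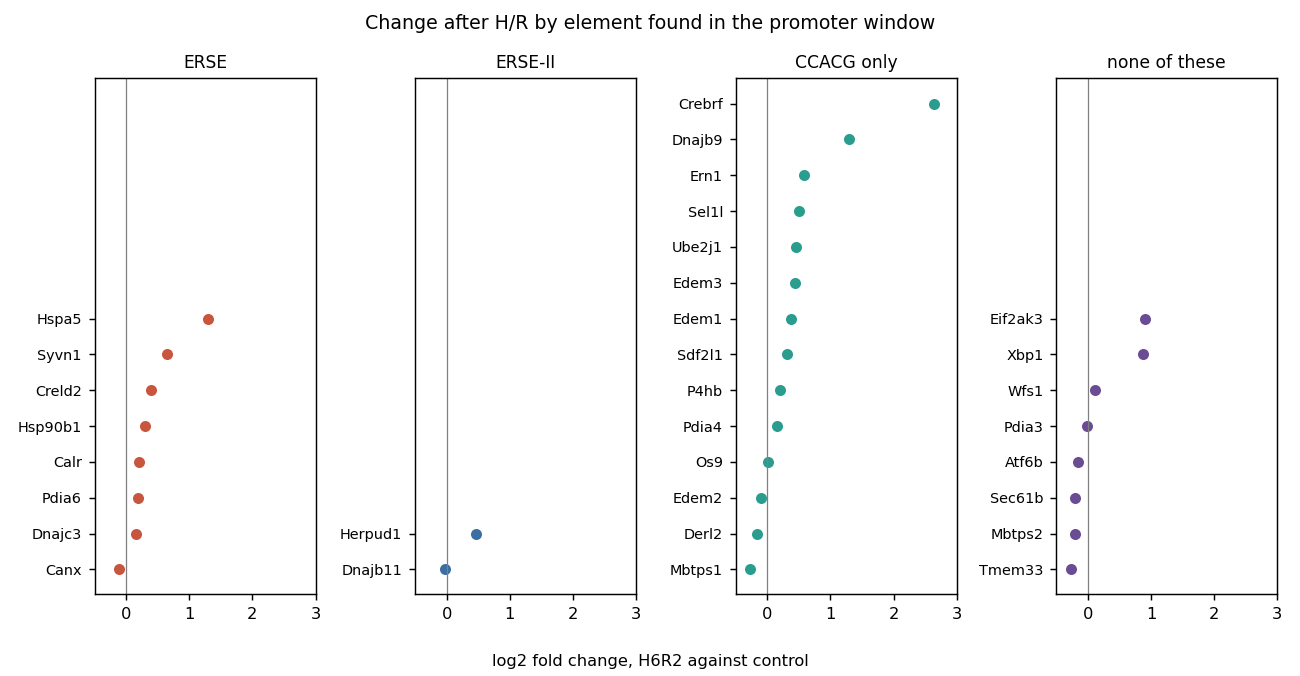
Log2 fold change of H6R2 against control (x axis) for the ER genes with a promoter window and a test, 1 panel for each element found: ERSE (8 genes), ERSE-II (2), CCACG without these (14) and none of them (8). Points are genes ordered by change, and the medians are 0.25, 0.22, 0.35 and -0.09.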

How the data were processed

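RNA was sequenced from 3 control and 3 H/R (H6R2) libraries of AML12 cells. The authors trimmed reads with Trimmomatic 0.36, mapped them to GRCm38 with software printed as STRA, and counted them with featureCounts (Subread 1.5.1) per the submitters' processing notes, which also name edgeR 3.12.1. The annotation and strand setting are not given in the sources used here. The deposited counts are whole reads per gene without normalization. The deposited RPKM values are counts per kilobase of exon and per 1000000 library counts, and were recomputed with a largest relative error of 1.13e-06.

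Groups were compared with edgeR 4.0.16 under R 4.3.3 (filterByExpr, TMM, glmQLFit robust, glmQLFTest, Benjamini-Hochberg adjustment over 14020 genes). Thresholds were an adjusted p of 0.05 and, where stated, a fold of 2, those of the study. Normalised counts are counts divided by the effective library size times the mean effective size. SEs come from the F statistic. With 3 against 3 an exact permutation test cannot go below 0.1, so none is given for single genes. The depth of 20438746 to 21854790 counts limits precision for genes with few counts. The model was tested on simulated data.

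The genes, roles, pathway and marker lists were chosen with earlier results of these data known. Full values are given for genes past both thresholds, for Hspa5, Xbp1, Atf6, Ern1 and Eif2ak3, and for the genes with the largest and smallest change of each role, and of each pathway list for at most 2 genes past both thresholds. Edem2, shown in full, and the gene pairs were chosen after their values were seen. Alternatives were upper quartile factors, library totals, DESeq2 1.42.0, 2 other filters, non-robust dispersions, the replicate number as a block, limma 3.58.1 on log2 of the deposited RPKM with 1 or 0.1 added, a fold of 1.5, genes without shared exons, and leaving out each library. Promoter windows are from RefSeq, and the Xbp1 transcripts from GENCODE M21. Features of the proteins were planned and not run. Same-numbered libraries did not deviate together (correlations of -0.027, 0.005 and -0.014), so the numbers were not taken as pairs.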

Additional observations from a re-analysis of the deposited data

How the results depend on the processing

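Scaling, the test and single libraries moved the count of lower ER genes, which was 6 in the reported analysis. It was 11 with library totals, 12 with limma on RPKM at either pseudocount (1 or 0.1), and 3 with DESeq2 and with no filter on low counts. It was also 3 for the genes without shared exons, a smaller set of 27 tested genes. The share of all tested genes called lower moved too, from 31.8% to 36.8% with upper quartile factors, 39.1% with library totals and 25% with DESeq2. It is not given here for the other alternatives. Leaving out 1 library gave 2 to 6, with 3 without control replicate 1, control replicate 3 or H/R replicate 1, and 2 without H/R replicate 2. The count of higher genes was 24 and stayed between 18 and 25 under every alternative run on all listed genes. The share of all tested genes called higher was 31.0% with TMM, 26.3% with upper quartile factors, 23.9% with library totals and 27.5% with DESeq2. The 4 genes past both thresholds became 7 with a fold of 1.5. The median log2 fold change of 0.20 became 0.13 with upper quartile factors, 0.0975 with library totals, and 0.0968 and 0.0973 on RPKM with 1 and 0.1 added. Over all tested genes, 1195 passed both thresholds, 406 did so on RPKM with 1 added and 3420 with a fold of 1.5. Values near 0 changed sign. Os9 (0.02) became -0.0512 with upper quartile factors, -0.0858 with library totals, and -0.0846 and -0.0854 on RPKM with 1 and 0.1 added. In both RPKM fits Os9 was called lower (limma adjusted p = 0.0403 and 0.0405). Sil1 (0.08) became -0.0235 with library totals, and -0.0224 and -0.0233 on RPKM with 1 and 0.1 added. Pdia3 ranged from -0.0402 to 0.0124 with 1 library left out. The cause of these shifts was not tested.

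Under a replicate block the ER genes were split into 24 higher, 5 lower and 4 past both thresholds, and 1200 of all tested genes passed both. Only Derl2 changed its call under the block (edgeR adjusted p = 0.0526). The numbers do not pair the libraries in the labels.

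Of the results of single genes, 290 kept their side of the threshold under the alternatives on all 6 libraries, 18 gained a call, 28 lost one and 7 changed sign. A change of sign was counted only as such, so the calls of Os9 on RPKM are among the 7. With 1 library left out, 201 kept it, 4 gained, 22 lost and 1 changed sign.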
